A study of Mus musculus with 10 samples.

Results

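The 10 genes described here encode the core machinery that fuses and divides mitochondria. They are the fusion GTPases Mfn1, Mfn2 and Opa1, the inner membrane proteases Oma1 and Yme1l1, the fission GTPase Dnm1l, and the outer membrane fission receptors Fis1, Mff, Mief1 and Mief2. The genes were looked up by symbol, and all 10 were found among the 26335 genes of the deposited expression table. Expression was measured by RNA-seq in a cell line of mouse small cell lung cancer (mSCLC) that was grown from a primary lung tumor. That tumor arose in a model in which Rb1 and the p53 gene were deleted by Adeno-Cre given into the trachea, so every library in both groups carries that background, and all of them come from this 1 line. The control group received the vehicle DMSO (n = 5 libraries) and the other group received stiripentol, an antiseizure drug, at 250 µM (n = 5 libraries), for 48 h. The labels do not say that the libraries of a group came from separate cultures, so the p-values measure the spread between these libraries, which may be technical.

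Mitochondria form a network that is joined by fusion and divided by fission. The mitofusins Mfn1 and Mfn2 tether and fuse outer membranes, and Opa1 fuses inner membranes and shapes the cristae. Oma1 and Yme1l1 cut Opa1 protein into its short forms. For fission, Dnm1l (the protein Drp1) is recruited from the cytosol by Mff, Mief1 and Mief2, with Fis1 as a further outer membrane factor, and constricts the organelle. Much of this control acts on protein by cleavage and phosphorylation, which RNA-seq does not measure.

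Expression values are the deposited log2 CPM, the log2 of read counts scaled to the total of their library. The reads behind them could be recovered, and the control libraries held 22375625 to 65299372 reads (median 63607057) and the stiripentol libraries 55015760 to 60670901 (median 57977596). Control 5 was the shallow library. Across all genes tested the controls fell into a cluster of 3 libraries (controls 1 to 3) and one of 2 (controls 4 and 5), and the stiripentol group into a cluster of 3 (stiripentol 3 to 5) and one of 2 (stiripentol 1 and 2). Pearson's r over genes was 0.983 to 0.997 within clusters and 0.920 to 0.939 between the clusters of a group. The labels give no reason for these clusters, and it was not tested. Controls 1 to 3 were also normalized as a set apart from the other 7 libraries, so the larger control cluster cannot be told apart from that set. Of the neuroendocrine markers, Insm1 and Syp stayed under 1 CPM. Neurod1 and Chga were not matched in the table, and Uchl1 and Ncam1 passed the filter on low values, so the neuroendocrine identity of the line was checked on those alone. Rb1 and Trp53 still had reads. Counts over a whole gene do not show whether an exon was lost, so they do not check the deletion.

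Stiripentol treatment changed the expression of 3 of the 10 genes at an adjusted p under 0.05 by limma. Dnm1l rose 1.29-fold, and Mfn1 and Fis1 fell to 0.713-fold and 0.691-fold of control. All 10 genes passed the filter on low values (a mean log2 CPM above 0), with 220 to 18518 reads per gene and library. Among all 12306 genes tested, 27.7% were called (13.6% higher and 14.1% lower), so 3 of 10 was near the background. The median change of the 10 genes was -0.02 on the log2 scale, and that of all genes tested was -0.06. In 4 of the 10 (Mfn1, Dnm1l, Mff and Mief2) the control and stiripentol libraries did not overlap, against 27.2% of all genes tested. In a bulk sample, fewer cells of a type and less RNA per cell cannot be told apart. Markers of other cell types moved between the groups too: the summed level of 7 fibroblast markers was 404 to 696 CPM in controls and 152 to 185 CPM in stiripentol libraries, with 4 of the 6 tested lower. The summed level of the 4 leukocyte markers in the table was 4.27 to 18.3 CPM in controls and 55.3 to 103 CPM with stiripentol. Only Cd68 of these was tested, and it was higher, while Ptprc and Csf1r stayed under 1 CPM in every library. The part of such cells in the results on fusion and fission genes was not tested.

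**Figure D1:**
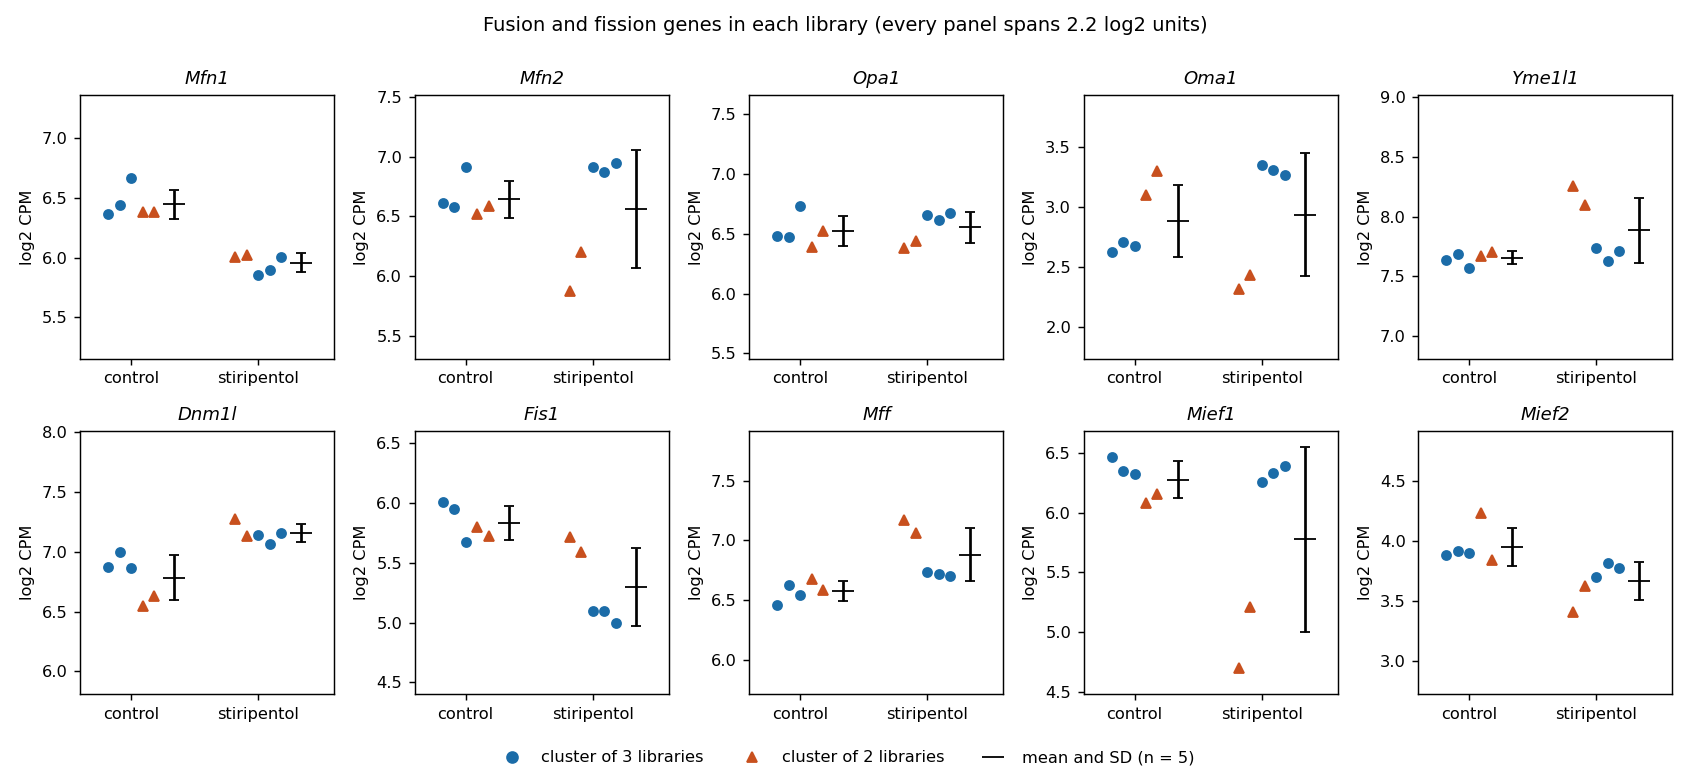
Log2 CPM of each of the 10 fusion and fission genes (vertical axis, one panel per gene) in the 5 control and 5 stiripentol libraries. Each point is a library, its shape gives the library cluster, and the bars are the group mean ± SD (n = 5). Mfn1, Dnm1l, Mff and Mief2 show no overlap between groups. The stiripentol libraries of Mfn2, Oma1, Mief1, Fis1, Mff and Yme1l1 split by cluster. Those of Opa1, Mief2 and Mfn1 do so by smaller gaps, and those of Dnm1l do not.

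The promoters of the 3 genes that changed are shown because the direction of change differed among them. Each window is the 250 bases before the most upstream RefSeq transcription start (GRCm38.p6), read 5′ to 3′ on the strand of the gene, with motif matches in capitals. The RefSeq starts differ slightly from the GENCODE gene bounds given further on for Mfn1 and Dnm1l.

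Mfn1 (chr3:32529232-32529481, plus strand): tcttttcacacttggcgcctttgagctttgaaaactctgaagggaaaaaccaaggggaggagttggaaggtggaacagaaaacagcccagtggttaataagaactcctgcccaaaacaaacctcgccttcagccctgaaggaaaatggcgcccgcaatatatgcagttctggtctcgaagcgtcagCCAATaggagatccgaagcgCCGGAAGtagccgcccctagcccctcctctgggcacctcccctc
Fis1 (chr5:136953025-136953274, plus strand): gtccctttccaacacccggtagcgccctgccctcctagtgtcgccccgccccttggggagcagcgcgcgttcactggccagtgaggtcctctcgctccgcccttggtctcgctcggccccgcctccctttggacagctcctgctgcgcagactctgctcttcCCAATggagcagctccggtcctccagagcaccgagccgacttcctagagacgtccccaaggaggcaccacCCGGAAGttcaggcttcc
Dnm1l (chr16:16359032-16359281, minus strand): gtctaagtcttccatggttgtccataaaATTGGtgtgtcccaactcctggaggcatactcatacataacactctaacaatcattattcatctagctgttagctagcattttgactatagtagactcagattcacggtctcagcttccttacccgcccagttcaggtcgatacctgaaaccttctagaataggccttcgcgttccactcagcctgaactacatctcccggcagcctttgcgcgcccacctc

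The motifs searched on both strands were chosen with the expression values known and were the NRF1 core (GCGC and TGCGC with 1 base between them), the ETS core CCGGAAG, the YY1 core AAGATGGC, the CCAAT box CCAAT, the E-box CACGTG and the CRE TGACGTCA. The windows of Mfn1 and Fis1, the genes that fell, each held the ETS core and, upstream of it, the CCAAT box. In Mfn1 the ETS core lay 44 to 38 bases before the start and in Fis1 18 to 12 bases before it. The window of Dnm1l, which rose, held no ETS core, and its single CCAAT box lay on the opposite strand, 222 to 218 bases before the start. The ETS core was found in 4 of the 10 genes (Mfn1, Fis1, Mief1 and Yme1l1) and in 6.907% of 32851 windows of the same length, and the CCAAT box in 7 of the 10 and in 33.85% of windows. Each gene was counted on its most upstream window alone, while the shares are over every RefSeq window, so the units differ. The 10 genes have 15 windows, and those further downstream held no match. Mief1 and Yme1l1 also hold the ETS core and did not pass the test, so the motif did not separate the genes that fell from the others. The NRF1 core was in Oma1 and Opa1 (3.738% of all windows) and the E-box in Mief2 (6.021%), and neither the YY1 core (1.565%) nor the CRE (1.546%) was in any of the 10. These matches describe letters, and factor binding was not measured.

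Mfn1 (chr3:32529465-32579239, GRCm38, plus strand), a GTPase of outer membrane fusion, was expressed at 6.36, 6.44, 6.66, 6.38 and 6.38 log2 CPM in controls 1 to 5 and at 6.01, 6.02, 5.85, 5.89 and 6.00 log2 CPM in stiripentol libraries 1 to 5. Every stiripentol library lay below every control, and control 3 was the highest of all. The mean fell from 6.44 ± 0.12 to 5.96 ± 0.08 (SD, n = 5 each), a log2 change of -0.49 (SE 0.10, 95% interval -0.70 to -0.28, adjusted p = 0.00487 by limma). The call held without any 1 library, with an adjusted p of 0.00809 to 0.0152.

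Mfn2 (chr4:147873599-147904704, minus strand), its paralog, which also links mitochondria to the endoplasmic reticulum, did not pass the test. Control libraries 1 to 5 had 6.61, 6.58, 6.92, 6.52 and 6.59 log2 CPM, and stiripentol libraries 5.88, 6.20, 6.91, 6.87 and 6.95 log2 CPM. Stiripentol 1 and 2 were below every control, and stiripentol 3 to 5 were as high as control 3, the highest control, or nearly so. The log2 change was -0.08 (SE 0.21, 95% interval -0.55 to 0.39, adjusted p = 0.795 by limma), and its sign turned without stiripentol 1 (0.09) or stiripentol 2 (0.01).

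Opa1 (chr16:29579334-29654884, plus strand), the inner membrane fusion GTPase, differed by less than the spread between libraries. Its expression was 6.48, 6.47, 6.73, 6.39 and 6.52 log2 CPM in controls and 6.39, 6.44, 6.66, 6.61 and 6.67 log2 CPM with stiripentol. The ranges nearly coincided. The log2 change was 0.03 (SE 0.10, 95% interval -0.19 to 0.26, adjusted p = 0.831 by limma).

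Oma1 (chr4:103313812-103371868, plus strand) is the stress-activated protease that cuts Opa1. Its expression was 2.62, 2.70, 2.67, 3.10 and 3.30 log2 CPM in controls and 2.32, 2.43, 3.35, 3.31 and 3.27 log2 CPM with stiripentol, with only 220 to 592 reads per library. Stiripentol 1 and 2 were below every control and stiripentol 3 to 5 were about as high as control 5, the highest control, and the log2 change was 0.06 (SE 0.27, 95% interval -0.53 to 0.64, adjusted p = 0.890 by limma). Yme1l1 (chr2:23156369-23199260, plus strand), the ATP-dependent protease that cuts Opa1 at another site, had 7.63, 7.69, 7.57, 7.67 and 7.71 log2 CPM in controls and 8.25, 8.10, 7.73, 7.63 and 7.71 log2 CPM with stiripentol. Stiripentol 1 and 2 were well above every control, stiripentol 3 and 5 were level with the highest control and stiripentol 4 was within the control range, and the log2 change was 0.23 (SE 0.13, 95% interval -0.05 to 0.51, adjusted p = 0.195 by limma), and 0.14 without stiripentol 1. A processed pseudogene, Gm14897, matches Yme1l1 transcripts at 96.1% identity over 207 bases, but held 7 reads over all libraries against 124740 for Yme1l1.

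Dnm1l (chr16:16312230-16358959, minus strand), the GTPase that carries out fission, was the gene that rose. Its expression was 6.87, 7.00, 6.87, 6.55 and 6.63 log2 CPM in controls 1 to 5 and 7.28, 7.13, 7.14, 7.07 and 7.15 log2 CPM in stiripentol libraries 1 to 5. Every stiripentol library was above every control, and controls 4 and 5 were the lowest. The mean rose from 6.78 ± 0.19 to 7.15 ± 0.08 (SD, n = 5 each), a log2 change of 0.37 (SE 0.11, 95% interval 0.14 to 0.60, adjusted p = 0.0266 by limma). The call was lost without control 5 (adjusted p = 0.0530), stiripentol 1 (0.0538) or stiripentol 2 (0.0516), with the same direction. An antisense gene, Gm49521, overlaps 9757 bases of Dnm1l and was not matched in the table. Whether counting used strand is not given in the sources used here, so reads of the pair cannot be told apart.

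Fis1 (chr5:136953275-136966234, plus strand), an outer membrane anchor of fission factors, had 6.01, 5.95, 5.67, 5.80 and 5.73 log2 CPM in controls and 5.71, 5.59, 5.09, 5.10 and 5.00 log2 CPM with stiripentol. Stiripentol 3 to 5 were far below the controls, whereas stiripentol 1 (5.71) was above control 3 (5.67), so the groups overlapped. The mean fell from 5.83 ± 0.14 to 5.30 ± 0.33 (SD, n = 5 each), a log2 change of -0.53 (SE 0.16, 95% interval -0.89 to -0.18, adjusted p = 0.0326 by limma). The call was lost without control 1 (adjusted p = 0.0766), control 2 (0.0745), stiripentol 3 (0.0680), stiripentol 4 (0.0685) or stiripentol 5 (0.0650). It was also lost under quantile normalization (0.0978) and median-ratio scaling (0.143), and with controls 4 and 5 alone against the 5 stiripentol libraries (0.198), with the direction kept.

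Mff (chr1:82724890-82752394, plus strand), the main receptor that recruits Dnm1l, had 6.46, 6.62, 6.54, 6.68 and 6.59 log2 CPM in controls and 7.17, 7.06, 6.73, 6.72 and 6.70 log2 CPM with stiripentol. No stiripentol library was as low as a control, yet stiripentol 3 to 5 were close to control 4. The log2 change was 0.30 (SE 0.12, 95% interval 0.04 to 0.56), which missed the threshold after adjustment over all genes (adjusted p = 0.0784 by limma). With the library cluster as a term, a fit that called 50.7% of all genes, the adjusted p was 0.0095 by limma. It was 0.107 under quantile normalization, 0.150 with a replicate block and 0.181 without stiripentol 1 and 2.

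Mief1 (chr15:80234018-80253371, plus strand) and Mief2 (chr11:60728398-60732951, plus strand) encode the MiD51 and MiD49 adaptors, which bind Dnm1l at the outer membrane. Mief1 had 6.47, 6.35, 6.32, 6.08 and 6.15 log2 CPM in controls and 4.70, 5.21, 6.26, 6.33 and 6.39 log2 CPM with stiripentol. Stiripentol 1 and 2 were far below all other libraries and the remaining stiripentol libraries lay among the controls. The log2 change was -0.50 (SE 0.31, 95% interval -1.19 to 0.19, adjusted p = 0.247 by limma), and -0.23 without stiripentol 1. Mief2 had 3.88, 3.91, 3.90, 4.23 and 3.84 log2 CPM in controls and 3.41, 3.62, 3.70, 3.82 and 3.77 log2 CPM with stiripentol. The groups did not overlap, but stiripentol 4 and control 5 were nearly level, and the log2 change was -0.29 (SE 0.14, 95% interval -0.61 to 0.03, adjusted p = 0.150 by limma). A coding gene, AC140267.1, shares 213 bases with Mief1 on the same strand and was not matched in the table.

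The change was then compared within library clusters, setting the 3 controls against the 3 stiripentol libraries of the larger clusters and the 2 against the 2 of the smaller ones. The matching is by cluster size alone. The clusters were found from these same expression values and hold the libraries most alike. The p-values within them therefore rest on a spread made small by that choice. Controls 1 to 3 were normalized apart from the other libraries. The comparison in the larger clusters therefore crosses separate normalization sets, and that in the smaller does not. The sets differed in the added count: a gene without reads stood at -4.82 log2 CPM in controls 1 to 3 and at -4.74 elsewhere. Over all libraries, limma voom on the recovered reads called the same 3 of the 10 genes, Dnm1l, Fis1 and Mfn1, and 29.5% of all genes. The part of the sets in the comparisons within clusters was not tested. Mfn1 was lower in both, by -0.57 in the larger clusters (adjusted p = 0.000996) and -0.36 in the smaller (0.00856), and Dnm1l was higher in both, by 0.21 (0.0194) and 0.61 (0.000316). Mff was also higher in both, by 0.18 (0.0342) and 0.49 (0.00146). Fis1 fell by 0.81 in the larger clusters (adjusted p = 0.000268), and in the smaller ones its change of -0.11 did not pass (0.390). Oma1 went in opposite directions, up by 0.64 (0.000480) and down by 0.83 (0.000929). Mief1 fell by 1.16 in the smaller clusters (adjusted p = 4.73e-05, against a change of -0.06 and 0.483 in the larger), and Mfn2 by 0.51 (0.00329, against 0.21 and 0.0842). In the smaller clusters Yme1l1 rose by 0.49 (0.00116, against 0.06 and 0.407 in the larger) and Mief2 fell by 0.52 (0.0145, against -0.14 and 0.147), while Opa1 passed in neither (-0.05 and 0.708, against 0.09 and 0.377). These are limma tests, in which 64.7% of all genes were called in the larger clusters and 72.2% in the smaller, against 5 and 8 of the 10 genes.

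The difference between the changes in the smaller and the larger clusters was itself tested with an interaction term. The clusters were found from the same expression values, these 10 genes included. The term is therefore not independent of the split, and its p-values are given as a description. It passed for 7 of the 10 genes, and for 63.3% of all genes tested. The difference, smaller minus larger, was -1.47 for Oma1 (adjusted p = 1.61e-05 by limma), -1.11 for Mief1 (0.000270), -0.72 for Mfn2 (0.00276) and 0.70 for Fis1 (0.00163). It was 0.43 for Yme1l1 (adjusted p = 0.00505 by limma), 0.41 for Dnm1l (0.00795) and 0.31 for Mff (0.0276). The Mff difference lost its call without control 2, control 5, stiripentol 1, stiripentol 3, stiripentol 4 or stiripentol 5 (adjusted p up to 0.0963). It did not pass for Mfn1 (0.21, 95% interval -0.08 to 0.50, adjusted p = 0.191), Opa1 (-0.13, 0.386) or Mief2 (-0.38, 0.0761). Under quantile normalization the Mfn1 difference was 0.41 and passed (0.0202), and Mief2 passed with voom (-0.44, 0.0426) and without control 5 or stiripentol 2 (adjusted p as low as 0.0120). The smaller clusters had a lower median change over all genes tested (-0.25) than the larger (0.08), and the medians of the 10 genes were -0.24 and 0.07. With the clusters matched the other way, the sign of the difference turned for Dnm1l (-0.24) and Mfn1 (-0.01), Opa1 passed (-0.34, adjusted p = 0.0330 by limma), and the difference for Oma1 shrank to -0.40. It was -0.67 for Oma1 under quantile normalization. Over all genes the 2 controls of the smaller cluster correlated more with stiripentol 3 to 5 (r of 0.932 to 0.938) than with stiripentol 1 and 2 (0.881 to 0.904), so the matching by size is not the one of highest correlation for them.

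**Figure D2:**
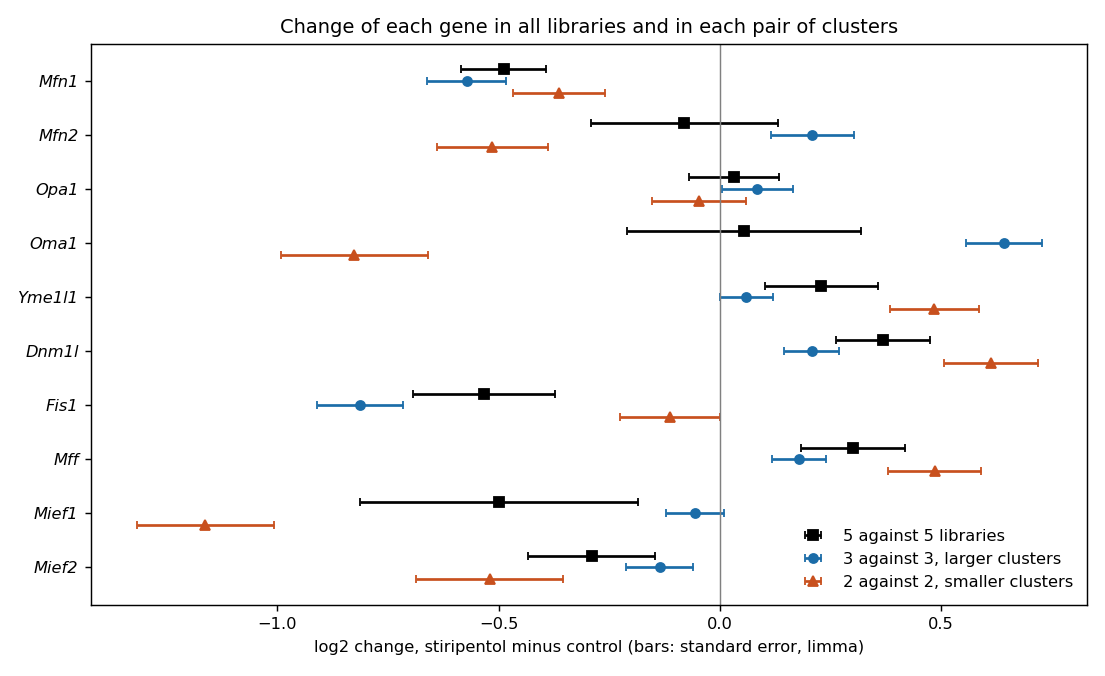
Log2 change from control to stiripentol (horizontal axis) of each of the 10 genes over all libraries (squares), in the larger clusters (circles, 3 against 3 libraries) and in the smaller clusters (triangles, 2 against 2), with bars for the standard error from limma. Mfn1 lies left of 0 and Dnm1l and Mff right of 0 in all 3, whereas Oma1 lies at 0.64 in the larger clusters and -0.83 in the smaller.

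Within each library, the difference between the log2 CPM of 2 genes shows how far they moved apart and is free of the scaling of that library. The pairs are a description with no test, and since genes differ in length only the shift between groups is compared. Dnm1l minus Mfn1 (the fission GTPase against a mitofusin) was 0.17 to 0.56 in controls and 1.11 to 1.29 with stiripentol, a mean of 0.34 ± 0.18 against 1.20 ± 0.08 (SD, n = 5 each). No library of one group reached the other. Dnm1l minus Fis1 was 0.75 to 1.20 in controls and 1.54 to 2.16 with stiripentol, again without overlap. Both pairs join genes whose opposite changes are given above and are not further evidence of them. Mfn1 minus Mfn2 (the mitofusin pair) was even in controls, at -0.26 to -0.14. With stiripentol it was 0.13 and -0.18 in libraries 1 and 2, and -1.06, -0.98 and -0.94 in libraries 3 to 5. In stiripentol 3 to 5, then, Mfn1 stood lower relative to Mfn2 than in any control, and in stiripentol 1 it stood higher. Mief1 minus Mief2 was 2.32 ± 0.28 in controls and 2.11 ± 0.63 with stiripentol, and Oma1 minus Yme1l1 was -4.77 ± 0.27 and -4.95 ± 0.78 (SD, n = 5 each). The groups overlapped for both of these pairs, and stiripentol 1 and 2 were the lowest libraries in each.

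**Figure D3:**
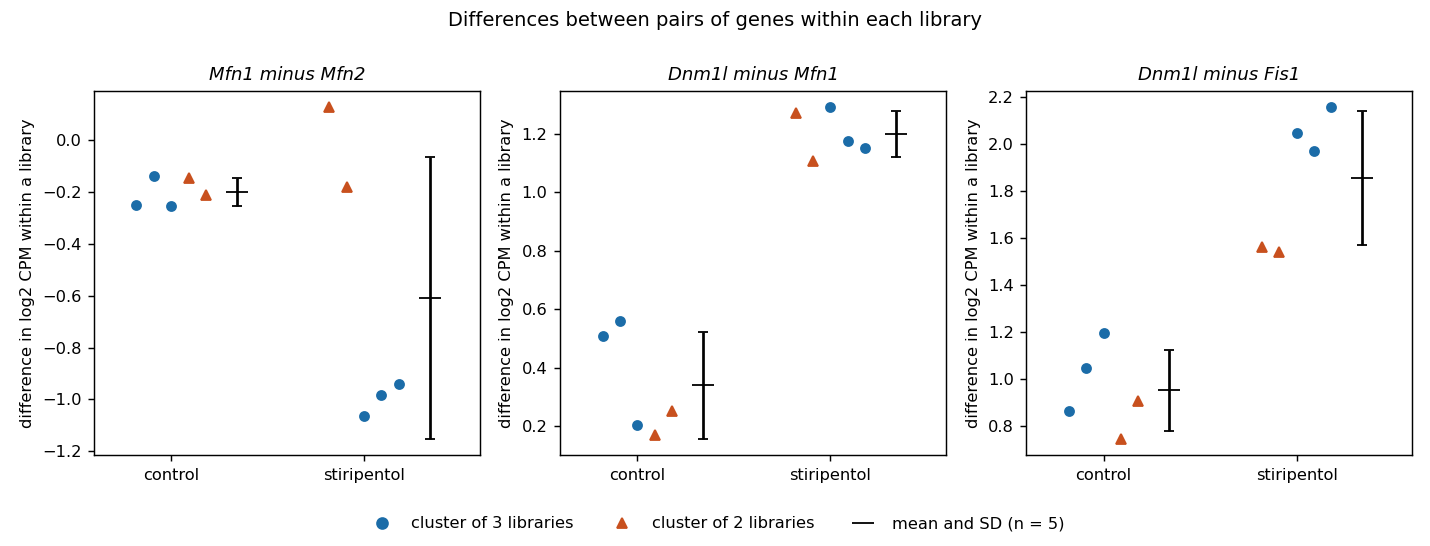
Difference in log2 CPM between paired genes within a library (vertical axis) for the control and stiripentol libraries, with circles for libraries of the larger clusters, triangles for those of the smaller, and bars for the group mean ± SD (n = 5). Dnm1l minus Mfn1 separates the groups (0.17 to 0.56 against 1.11 to 1.29), and Mfn1 minus Mfn2 is spread with stiripentol from -1.06 to 0.13.

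The rest of the mitochondrial dynamics machinery was taken from 6 lists of 46 genes in all, of which 42 passed the filter. Of these, 14 were called (9 higher and 5 lower, 33.3%, against 27.7% of all genes), with a median change of -0.05. Among other fission factors, 5 of the 6 tested were called, 4 higher and 1 lower, with a median of 0.34. Mtfr2, a fission regulator, rose by 1.21 (SE 0.33, adjusted p = 0.0221 by limma), and Spire1, an actin nucleator at mitochondria, rose by 0.56 (SE 0.12, 0.00747). Mtfr1l, a regulator of the same family as Mtfr2, rose by 0.35 (SE 0.12, 0.0446), a call lost without 9 of the 10 libraries in turn (adjusted p up to 0.102), and Dnm2, a dynamin of membrane scission, by 0.32 (SE 0.10, 0.0408), a call also lost without 9 of the 10. Inf2, the formin that assembles actin at fission sites, moved the other way, at -0.81 (SE 0.20, adjusted p = 0.0143 by limma). Among other fusion factors, none of the 4 tested was called, with a median of -0.41 and, at an unadjusted p under 0.05, only Stoml2 (0.27, SE 0.10, adjusted p = 0.0692 by limma), a cardiolipin-binding scaffold. The median of this list was 0.24 in the larger clusters and -0.89 in the smaller. Miga1, which promotes fusion at the outer membrane, was at 0.79 and -2.60 there, and Slc25a46, an outer membrane carrier protein, at 0.29 and -1.20, both called in each. Miga2, the relative of Miga1, was lower in both, at -0.47 and -0.58.

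Enzymes that modify fusion and fission proteins had 1 higher and 2 lower of 11 tested (27.3%, against 27.7% of all genes). Usp30, the outer membrane deubiquitinase, rose by 0.59 (SE 0.15, adjusted p = 0.0153 by limma). The calcineurin catalytic subunits Ppp3ca (-0.50, SE 0.16, adjusted p = 0.0386) and Ppp3cb (-0.46, SE 0.11, 0.0111), which dephosphorylate Drp1, were lower, and the call of Ppp3ca was lost without 5 of the 10 libraries in turn (up to 0.0904). Among inner membrane proteases and prohibitins, Parl, the rhomboid protease, rose by 0.63 (SE 0.12, adjusted p = 0.00390 by limma), and Spg7, a subunit of the m-AAA protease, was at -0.33 (SE 0.10, 0.0343), a call lost without 8 of the 10 libraries in turn (up to 0.0707). The MICOS list, whose proteins hold cristae junctions, had 2 of 11 called (18.2%, below the share of all genes). Chchd3 rose by 0.79 (SE 0.15, adjusted p = 0.00434 by limma) and Chchd6 by 0.66 (SE 0.18, 0.0200). In the transport list the Miro GTPases, which tie mitochondria to microtubule motors, moved apart. Rhot1 rose by 0.70 (SE 0.12, adjusted p = 0.00217 by limma), and Rhot2 was at -0.34 (SE 0.09, 0.0209), a call lost without 2 of the 10 libraries in turn (up to 0.0561). Within a library, Rhot1 minus Rhot2 was 0.40 ± 0.15 in controls and 1.45 ± 0.14 with stiripentol (SD, n = 5 each).

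**Figure D4:**
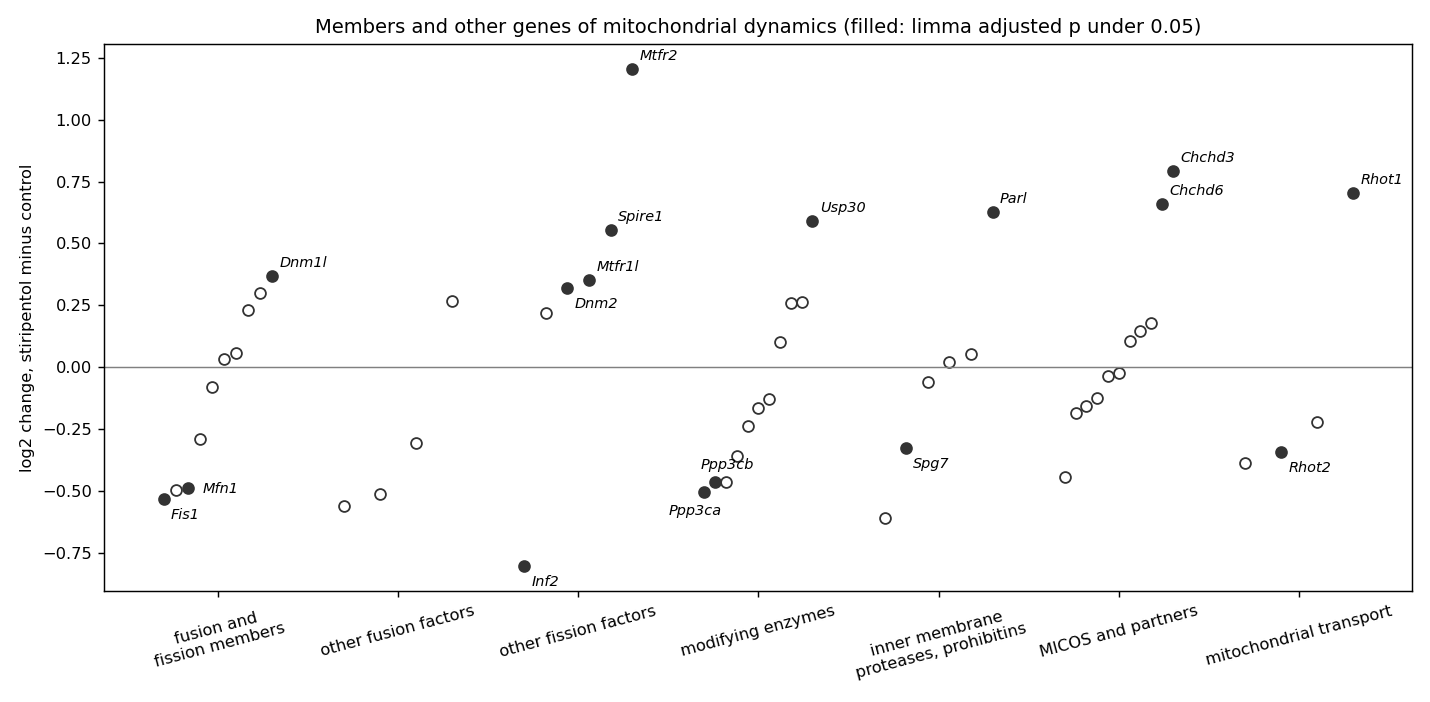
Log2 change from control to stiripentol (vertical axis) of the 10 fusion and fission genes and of the 42 tested genes of 6 other lists, one column per list. Filled points passed an adjusted p under 0.05 by limma. The called genes of the other fission list lie above 0 except Inf2 at -0.81, and no gene of the other fusion list is filled.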

How the data were processed

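RNA was measured in 10 libraries of one mSCLC cell line, 5 control and 5 stiripentol. The authors deposited one table of log2 CPM per gene and library, with mm10 named in the submitters' processing notes. The aligner, annotation and use of strand are not given in the sources used here, and the sources name both a 3′ tag kit and a total RNA kit, so levels were not compared between genes. The authors' own comparison columns (group means, ratio or fold, p-value, q-value, −log10 p-value, scores of difference) were deposited in the same table and were not used. The deposited log2 values were whole reads after conversion (tolerance 0.05), with added counts that differed between controls 1 to 3 and the other 7 libraries, so these were normalized as separate sets, and differences between them rest on the authors' scaling.

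Genes with a mean log2 CPM above 0 (12306) were fitted with limma 3.58.1 (R 4.3.3; lmFit and eBayes with trend, two-sided), with Benjamini-Hochberg adjustment over all of them and calls at 0.05. The code was tested on simulated data. Library clusters were found within each group by correlation of the same log2 CPM over the genes tested. Interaction terms used these clusters, matched by size. Alternatives were voom on recovered reads, quantile and median-ratio scaling, other filters, 1 CPM added, a cluster term, cluster means, a replicate block and leaving out libraries. Leaving out controls 1 to 3 or the smaller stiripentol cluster, and matching the clusters the other way, were alternatives chosen after seeing the data. The 10 genes, the lists and the motifs were chosen with earlier results of these data known. Named genes are all 10, up to the 3 called genes of largest change in each direction per list, and, from the 3 genes most correlated with each called gene, those that can be given; Dnm2 and Stoml2 were named after their values were seen. Some genes of these lists and rankings are not reported here. Promoters came from RefSeq (GRCm38.p6), coordinates from GENCODE M21 (GRCm38), and near-identical copies were searched with blastn 2.17.0+ (at least 95% identity over 100 bases). Python 3.11.15 was used for tables and figures. No library pair within a cluster agreed within sampling noise (chi-square per gene 7.25 or more), so all 10 were counted. Intervals cover the spread between libraries.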

Additional observations from a re-analysis of the deposited data

Results flagged for a closer look

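Single libraries stood apart within their group by Dixon's test in 4 of 48 groups of values tested, where chance alone gives about 1 in 20. Control 3 was the highest control for Mfn1, at 6.66 log2 CPM, and for Mfn2, at 6.92 log2 CPM. Control 4 was the highest control for Mief2, at 4.23 log2 CPM. Control 5 held 22375625 reads in total, well below the other controls.

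The change with stiripentol differed between the smaller and the larger library clusters, by a limma interaction term, for Mfn2 (-0.72), Oma1 (-1.47), Yme1l1 (0.43), Dnm1l (0.41), Fis1 (0.70), Mff (0.31) and Mief1 (-1.11), each as the log2 change in the smaller clusters minus that in the larger. The same term passed for 63.3% of all genes tested, so such a difference was not particular to these genes. The clusters were found from the same expression values, so the term is not independent of them. For Oma1 the 3 stiripentol libraries of the larger cluster were above their controls and the 2 of the smaller cluster below theirs.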

How the results depend on the processing

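The calls rest on 5 libraries a group that fall into unlabelled clusters, and which clusters correspond between the groups is not given. Mfn1 was the most stable of the 10 genes: it passed under every alternative except 1 mean per group and cluster. The number of the 10 genes called by limma was 3 (27.7% of all genes), and 2 to 3 without any 1 library (19.4% to 27.0% of all genes). It was 4 with a cluster term (50.7%), 5 in the larger clusters (64.7%) and 8 in the smaller clusters (72.2%). With 1 mean per group and cluster it was 0 (0 at an unadjusted p under 0.05). Of the 42 genes of the other lists 14 were called, 10 to 12 without any 1 library, 7 with a replicate block (16.9% of all genes), 23 with a cluster term (50.7%), 33 in the smaller clusters (72.2%) and 0 with cluster means (1 at an unadjusted p under 0.05), where limma called 0 of all 12306 genes. The interaction passed for 7 genes, and for 6 to 8 without any 1 library (55.7% to 71.0% of all genes).

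The replicate numbers did not pair the libraries: deviations of same-numbered libraries correlated at -0.240 to 0.0612, and 0 of 10 libraries correlated best with its own number. With the replicate block 2 of the 10 genes were called (16.9% of all genes), and the adjusted p was 0.0366 for Mfn1, 0.0356 for Fis1 and 0.0580 for Dnm1l. Dnm1l also missed the threshold without the 2 stiripentol libraries of the smaller cluster (0.0540), and Fis1 with no filter (0.0508) and with the 2 controls of the smaller cluster against all 5 stiripentol libraries (0.198). Quantile normalization moved the median change of all genes from -0.06 to 0.05.

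Among the 10 genes, signs turned as follows. Mfn2 ranged from -0.18 to 0.091 without any 1 library, and was 0.21 in the larger clusters, 0.0073 against 2 controls and 0.27 without the 2 stiripentol libraries. Opa1 was -0.047 in the smaller clusters. Oma1 ranged from -0.048 to 0.21 without any 1 library, and was -0.83 in the smaller clusters, -0.092 with cluster means and -0.27 against 2 controls. Mief1 was 0.049 without the 2 stiripentol libraries. Cluster differences turned for Mfn1 (-0.0090) and Dnm1l (-0.24) with the other matching and for Opa1 (0.0073) and Mief2 (0.24) under quantile normalization. The cause was not tested.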

Other observations

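Over the 10 libraries, several fusion and fission genes varied together or apart, as a description over points that share treatment, library cluster and scaling. Yme1l1 and Mff had a Pearson r of 0.944, and both ran opposite to Mief1 (-0.970 and -0.930). Mfn2 followed Mief1 (0.900) and Opa1 (0.852). The genes most like Mfn1 were Matn2 (0.985), Ogn (0.984) and Gm15222 (0.974). Among those most like Dnm1l were Cenpe (0.984), a kinetochore motor, and Farsb (0.982), a tRNA synthetase subunit. Those most like Fis1 were Mrpl33 (0.980), a mitochondrial ribosomal protein gene, Rassf1 (0.979) and 2610001J05Rik (0.974). Each was picked as among the 3 highest of 12306 genes tested, over 10 libraries.

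Among other marker lists, Krt8 was lower of the 2 epithelial markers tested, and the summed epithelial level was 2278 to 2598 CPM in controls and 1544 to 2145 CPM with stiripentol. Of the tuft cell markers tested Avil was higher and Dclk1 lower. Pou2f3 (mean 0.99 log2 CPM in controls and -2.53 with stiripentol) and Trpm5 (-1.98 and -3.63) were under the filter and untested, and did not overlap between groups. The list had a summed level of 198 to 244 CPM and 121 to 125 CPM. The neuroendocrine list summed to 93.4 to 120 CPM and 127 to 157 CPM, with Ncam1 higher.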
